A study of Mus musculus with 6 samples.

Results

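The miR-342 hairpin gives rise to a pair of mature microRNAs (miRNAs), mmu-miR-342-5p from its 5′ side and mmu-miR-342-3p from its 3′ side (mmu for mouse, left out from here on), and both were counted by small RNA sequencing in cultured mouse macrophages. They were found by exact name among the mature miRNA references, as 2 of 911 that had reads in at least 1 library. The study compared 3 ApoE-knockout (EKO, labelled ApoE-KO) with 3 wild-type (WT) biological replicates of bone-marrow-derived macrophages. In both genotypes marrow came from male mice aged 6 to 12 weeks, was grown in DMEM with 10% serum, and received 25 ng/mL macrophage colony-stimulating factor (M-CSF) every 2 days for 6 days in all. The labels name neither the knockout allele nor the strain, nor whether a culture came from 1 animal or a pool. Macrophages make and release apolipoprotein E, which carries cholesterol and other lipids, and the comparison sets miRNA levels in cells without it beside those in cells with it. Apoe mRNA was not counted, so the genotypes rest on the labels alone.

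A miRNA hairpin is cut into a short duplex of its 5p and 3p arms, and an Argonaute protein usually keeps 1 strand, which pairs through its seed (bases 2 to 8) with target transcripts. The miR-342 hairpin lies in an intron of Evl, which encodes an actin regulator of the Ena/VASP family, and its transcription in myeloid cells is linked to the transcription factor PU.1. In mouse macrophages the 5p arm is known for targeting the Akt1 transcript and, through it, raising miR-155 and inflammatory signalling in the atherosclerotic lesions of Apoe-deficient mice. The 5p arm is also known as an interferon-induced repressor of the sterol synthesis pathway.

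Both arms and the hairpin are shown because the division of reads between the arms is compared below. The sequences are from RefSeq (GRCm38.p6, plus strand of chromosome 12). The mature arms are written 5′ to 3′ with the seed in capitals, and the hairpin is written with the 2 mature arms in capitals.
miR-342-5p: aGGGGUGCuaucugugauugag
miR-342-3p: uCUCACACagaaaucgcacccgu
Mir342 hairpin: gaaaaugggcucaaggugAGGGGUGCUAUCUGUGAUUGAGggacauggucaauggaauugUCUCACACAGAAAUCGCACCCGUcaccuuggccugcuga

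The hairpin spans chr12:108658620-108658718 in GRCm38, with the 5p arm at chr12:108658638-108658659 and the 3p arm at chr12:108658680-108658702. In the GENCODE annotation of that assembly it lies on the same strand as Evl, within an intron of 5 of the 7 Evl transcripts. That intron is the third in 4 of them and the fourth in the other. The hairpin starts 5520 bases after the upstream exon and ends 14570 bases before the downstream one. The 5p arm has 22 bases, a first base of A and a GC content of 50.0%, and the 3p arm has 23 bases, a first base of U and a GC content of 52.2%. Among the miRNAs averaging at least 10 CPM (reads per 1000000 miRNA reads of the library) with a sequence in the table (216 of 251), 44.0% begin with U and 26.4% with A. The seeds of the 2 arms differ, and neither is shared with any other of the 1679 mature names in the RefSeq table. Of miRNAs that share bases 2 to 7 with an arm, the table holds miR-6931-5p and miR-6943-5p, both matching the 5p arm, and neither had a read in any library. In all 6 libraries the estimated count of each arm, which splits a read that fits more than 1 reference, equalled its total read count, so neither arm shared reads with another reference. That held for 168 of the 251 miRNAs averaging at least 10 CPM.

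The libraries held between 34651511 and 41331604 reads on mature miRNAs, with 543 to 591 miRNAs detected in EKO and 664 to 698 in WT. Macrophage and myeloid miRNAs summed to between 143031 and 171234 CPM in EKO and between 215757 and 228584 CPM in WT, mostly miR-21a-5p. All 8 listed had reads. Fitted levels in EKO were higher for 2 of them, miR-223-5p and miR-146a-5p, and lower for 6. The arms of miR-511, encoded in the macrophage mannose receptor gene Mrc1, were near 0, with miR-511-5p at 0.0759 to 1.62 CPM in EKO and 4.53 to 6.73 CPM in WT. Lymphoid miRNAs, listed because lymphocytes also express miR-342, summed to between 537 and 649 CPM in EKO and between 728 and 846 CPM in WT. The sum was mostly miR-181a-5p and miR-181b-5p, and all 5 listed had reads. Of the 4 lymphoid references tested, 1 had a higher and 3 a lower fitted level in EKO. The lymphocyte marker miR-150-5p was low, at 2.60 to 5.42 CPM in EKO and 4.60 to 5.96 CPM in WT. Stromal miRNAs summed to between 91.3 and 127 CPM in EKO and between 188 and 235 CPM in WT, mostly miR-143-3p. Of the 4 stromal references tested, 2 had a higher and 2 a lower fitted level in EKO. The sums of erythroid, megakaryocyte and endothelial, and epithelial miRNAs were each at most 180 CPM in any EKO library and at most 160 CPM in any WT library. All listed megakaryocyte, endothelial and epithelial miRNAs with an entry had reads, while 2 of the 5 erythroid ones, the arms of miR-144, had no entry. In bulk RNA, fewer cells of a type and less RNA per cell cannot be told apart, and the part of these cell types in the miR-342 values was not tested.

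The 5p arm was at higher levels in the EKO libraries than in the WT libraries, while the levels of the 3p arm overlapped. The level of miR-342-5p was 387, 323 and 310 CPM in EKO replicates 1, 2 and 3, and 264, 232 and 201 CPM in the WT replicates. All 3 EKO libraries lay above all 3 WT libraries, with the highest value in EKO replicate 1 and the lowest in WT replicate 3. In the order of abundance within a library, miR-342-5p stood at places 73, 81 and 86 in EKO and at places 96, 97 and 104 in WT. It averaged 340 ± 41.5 CPM in EKO macrophages and 232 ± 31.5 CPM in WT macrophages (SD over 3 libraries each), and the fitted log2 fold change, EKO over WT, was 0.58 ± 0.18 (SE). This did not pass the test over all miRNAs (adjusted p = 0.105, edgeR quasi-likelihood test with Benjamini-Hochberg adjustment, unadjusted p = 0.0114). No miRNA did: edgeR called 0 of 575 (0.0%), while 123 (21.4%) had an unadjusted p under 0.05. DESeq2 called 102 of 627 (16.3%) and limma-voom 32 of 575 (5.57%).

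The level of miR-342-3p was 142, 165 and 193 CPM in EKO and 199, 182 and 217 CPM in WT. The groups overlapped, since EKO replicate 3 lay above WT replicate 2. Its place in the order of abundance hardly varied, at 106, 100 and 104 in EKO and 104, 104 and 101 in WT. It averaged 167 ± 25.7 CPM in EKO macrophages and 200 ± 17.5 CPM in WT macrophages (SD over 3 libraries each), with a fitted log2 fold change of -0.23 ± 0.15 (edgeR, SE, adjusted p = 0.472). Over the 575 miRNAs in the test the median was -0.16, and relative to it the 5p arm stood at 0.74 and the 3p arm at -0.07. The 3p value depended on the setting. It was 0.07 to 0.11 with DESeq2, limma-voom, no low-count filter or a replicate block, and -0.18 among miRNAs averaging at least 10 CPM. With the GC trend of each library removed it was -0.23, and -0.32 with that filter as well. Of 251 miRNAs with a mean of at least 10 CPM, 33 had a log2 fold change above that of miR-342-5p and 151 had one above that of miR-342-3p. An unadjusted p under 0.05 on the higher side, as for miR-342-5p, was found for 8.35% of the tested miRNAs (edgeR). When only miRNAs averaging at least 10 CPM were fitted, 43 of 251 were higher and 51 lower at that p. Of all tested, 12.5% had all EKO libraries above all WT libraries (19.5% of those averaging at least 10 CPM).

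Whether miR-342-5p passed the adjusted threshold of 0.05 differed between filters and tools. It passed with DESeq2 (adjusted p = 0.0101), where 7.81% of the 627 miRNAs given an adjusted p were called higher in EKO, and with edgeR without a low-count filter (adjusted p = 0.0369), where 2.64% of 910 were. It also passed among the miRNAs averaging at least 10 CPM (adjusted p = 0.0440), where 10.8% of 251 were called higher, and there with the GC trend of each library removed as well (11.6%). A term for the replicate number let it pass with either filter (4.52% of 575 called higher, and 16.3% of the 251 averaging at least 10 CPM). The labels do not say whether these numbers pair the libraries. The call among those averaging at least 10 CPM was lost on leaving out any 1 library other than EKO replicate 3 (adjusted p = 0.0743 to 0.151 for those 5 fits).

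**Figure D1:**
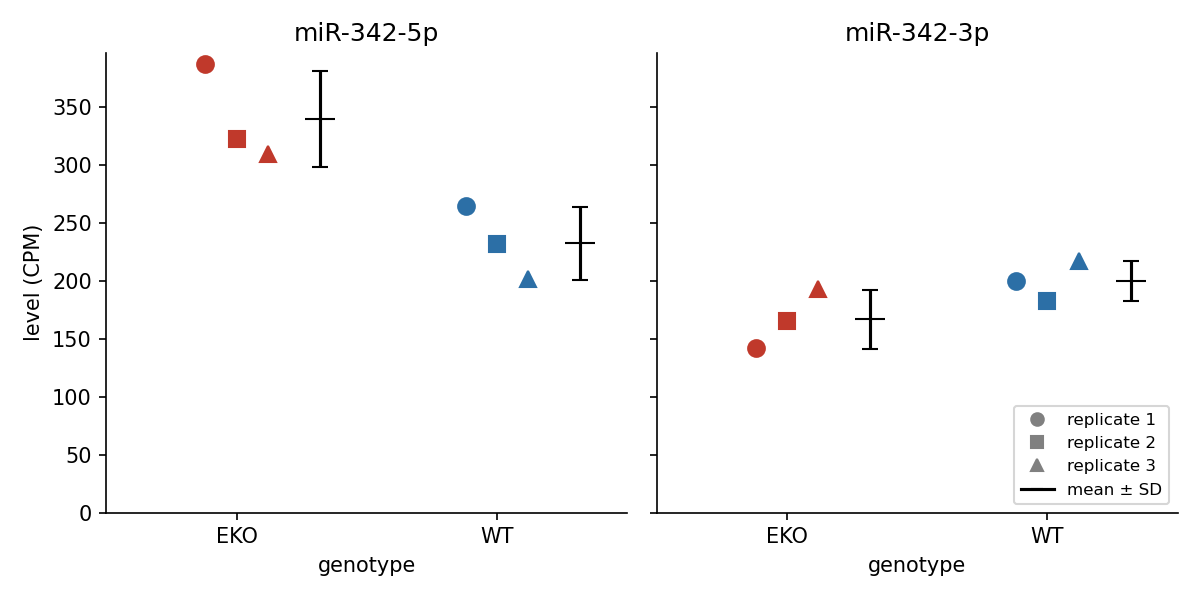
Levels of miR-342-5p (left) and miR-342-3p (right) in CPM for the 3 EKO and 3 WT libraries, with 1 symbol per replicate and the mean ± SD in black. The EKO values of the 5p arm (310 to 387 CPM) sit above the WT values (201 to 264 CPM), while those of the 3p arm overlap (142 to 193 CPM in EKO, 182 to 217 CPM in WT).

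A larger share of the hairpin's reads came from the 5p arm in every EKO library than in any WT library. In counts, miR-342-5p had 13420, 12756 and 11486 reads in EKO and 10154, 9570 and 8233 in WT. The 3p arm had 4915, 6530 and 7166 reads in EKO and 7667, 7539 and 8891 in WT. The 5p arm thus took the larger share in every library but WT replicate 3. The 5p arm held 73.2%, 66.1% and 61.6% of the reads of the hairpin in EKO and 57.0%, 55.9% and 48.1% in WT. There were 2.73, 1.95 and 1.60 reads of 5p per read of 3p in EKO and 1.32, 1.27 and 0.926 in WT. All 3 EKO ratios lay above all 3 WT ratios, and replicate 1 had the highest and replicate 3 the lowest ratio in each genotype. The sum of both arms was 529, 488 and 503 CPM in EKO and 464, 414 and 419 CPM in WT.

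The log2 ratio of 5p to 3p averaged 1.03 ± 0.39 in EKO macrophages and 0.21 ± 0.28 in WT macrophages (SD, 3 libraries each). The difference of 0.82 ± 0.37 (SE) did not pass the test over the 154 hairpins with both arms averaging at least 10 reads (limma, unadjusted p = 0.0783, adjusted p = 0.340). That test called 1.3% of the hairpins, miR-1198 toward the 5p arm and miR-5134 toward the 3p arm, named because there were no others, each with a minor arm averaging under 1 CPM. An unadjusted p under 0.05 toward the 5p arm was found for 9.09%. With both arms averaging at least 10 CPM, which left 53 hairpins, the standard error was 0.27 (limma, adjusted p = 0.0811, unadjusted p = 0.0229), and 1.89% of hairpins were called. With edgeR's exon-usage test applied to arms the adjusted p was 0.0885, and 5.84% were called. All EKO ratios lay above all WT ratios in 13.0% of the 154 hairpins and in 18.9% of the 53, and 10 of the 53 had a larger difference than miR-342. The median difference of the 53 was -0.08. Ligation and PCR favour some sequences, so the size of a ratio within 1 library is not the ratio of molecules in the cells.

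**Figure D2:**
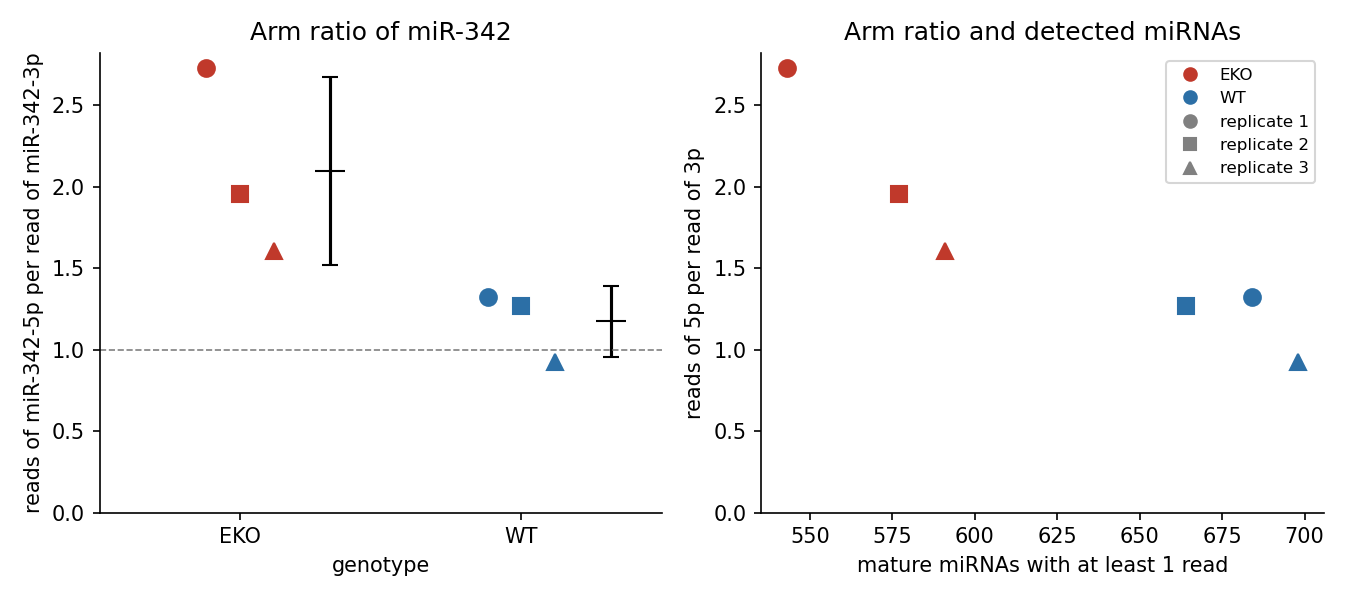
Reads of miR-342-5p per read of miR-342-3p by genotype (left, mean ± SD in black, dashed line at 1) and the same ratio against the number of mature miRNAs detected in the library (right). The EKO libraries have ratios of 1.60 to 2.73 with 543 to 591 miRNAs detected, and the WT libraries have ratios of 0.926 to 1.32 with 664 to 698 detected.

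The libraries also differed in detection. The number of mature miRNAs with at least 1 read was 543, 577 and 591 in EKO replicates 1, 2 and 3, and 684, 664 and 698 in the WT replicates. In EKO the library with the fewest detected miRNAs had the highest ratio and the one with the most had the lowest. In WT the library with the most detected had the lowest ratio, but the one with the fewest did not have the highest. The part of detection in the ratio was not tested. The GC content of the mature sequences, averaged over reads, was 40.9%, 40.6% and 40.6% in EKO and 40.2%, 40.2% and 40.3% in WT. For the GC trend, 84.3% of the 575 tested miRNAs had a sequence, and the others were set to the median GC content. With the trend of each library with GC content removed, the log2 fold changes were 0.77 ± 0.20 for miR-342-5p and -0.22 ± 0.15 for miR-342-3p (SE, adjusted p = 0.0921 and 0.533, edgeR), with the median of all miRNAs at 0.01 instead of -0.16. Relative to those medians the 5p arm stood at 0.76 with the trend removed and 0.74 without, and the 3p arm at -0.23 with the trend removed and -0.07 without.

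Of the 53 hairpins with both arms averaging at least 10 CPM, 12 had a positive log2 fold change of the 5p arm with a negative one of the 3p arm, as miR-342 did, and 14 had the reverse. In 10 both arms were positive and in 17 both were negative. These counts take the signs alone, and that of miR-342-3p is uncertain (-0.23 ± 0.15, edgeR, SE, adjusted p = 0.472). Among those 12 was miR-223, a hairpin of myeloid cells, with log2 fold changes of 0.46 for the 5p arm and -0.62 for the 3p arm. Its log2 ratio of 5p to 3p was 3.56, 3.45 and 3.28 in EKO and 2.65, 2.52 and 1.91 in WT, a difference of 1.07 ± 0.35 (limma, SE, adjusted p = 0.290).

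**Figure D3:**
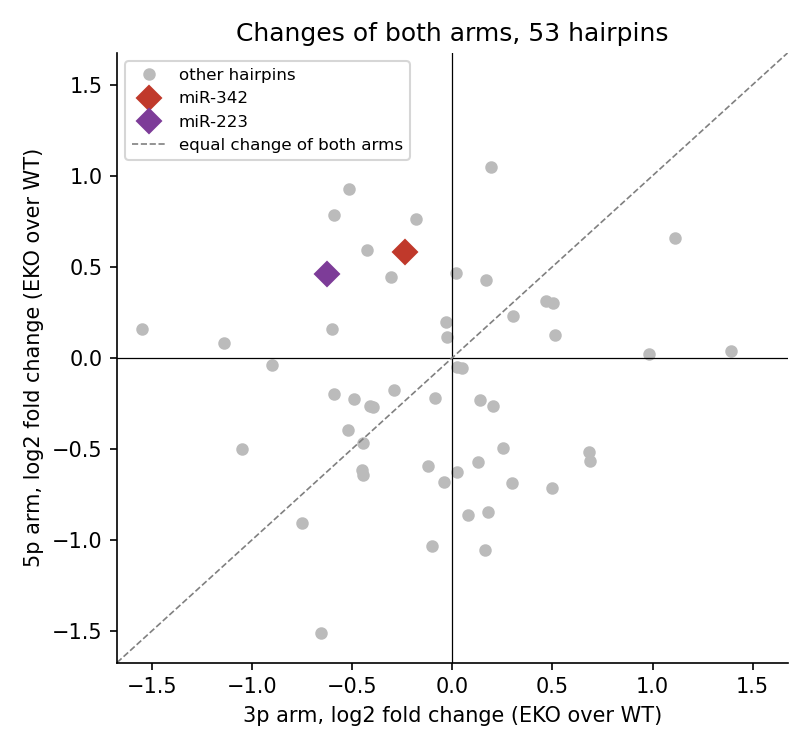
Log2 fold change (EKO over WT) of the 5p arm against that of the 3p arm for 53 hairpins with both arms averaging at least 10 CPM, with the dashed line marking equal change of both arms. miR-342 (0.58 for 5p, -0.23 for 3p) lies at the upper left, where 12 hairpins in all, miR-223 among them, have a positive log2 fold change of the 5p arm and a negative one of the 3p arm.

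The arms also differed in their unique read count, in every library. The deposited tables give this count per reference without defining it. It is taken here as the number of distinct read sequences, from its column name and from values far below the read counts. Every value on distinct sequences, the plot included, rests on that reading, and no source used here says so or says how such sequences would differ. On miR-342-5p there were 316, 307 and 324 distinct sequences in EKO and 311, 279 and 284 in WT. On miR-342-3p there were 109, 141 and 178 in EKO and 155, 158 and 197 in WT. In WT replicate 3, where the 5p arm had fewer reads than the 3p arm, it still had more distinct sequences.

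Set against miRNAs with a read count within 1.5 times its own in the same library, miR-342-5p had more distinct sequences than 25 of 25, 27 of 28 and 27 of 27 in EKO and than 25 of 26, 24 of 24 and 21 of 21 in WT. The 3p arm had more than 21 of 29, 14 of 20 and 15 of 22 in EKO and than 11 of 22, 10 of 20 and 12 of 21 in WT. The 5p arm thus stood at or next to the top of its neighbours in all 6 libraries, and the 3p arm nearer the middle.

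Between genotypes the number of distinct sequences was not distinguished from the spread of the libraries. Means were 316 ± 8.50 in EKO and 291 ± 17.2 in WT for the 5p arm (two-sided exact permutation p = 0.2), and 143 ± 34.5 in EKO and 170 ± 23.4 in WT for the 3p arm (exact permutation p = 0.4, SD, n = 3 each). Per 1000 reads the 5p arm held 23.5, 24.1 and 28.2 distinct sequences in EKO and 30.6, 29.2 and 34.5 in WT. The two-sided exact permutation p was 0.1, the smallest that 3 against 3 can give. The 4 tests on distinct sequences had adjusted p-values of 0.267 or 0.4. How many of all miRNAs differed as much between genotypes on this measure was not counted. For the 3p arm the number per 1000 reads was 22.9 ± 1.73 in EKO libraries and 21.1 ± 0.979 in WT libraries (exact permutation p = 0.2). Over all miRNAs the libraries held 1.39, 1.36 and 1.55 distinct sequences per 1000 reads in EKO and 1.62, 1.504 and 1.64 in WT. The part of read number and of the library in these values was not tested.

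**Figure D4:**
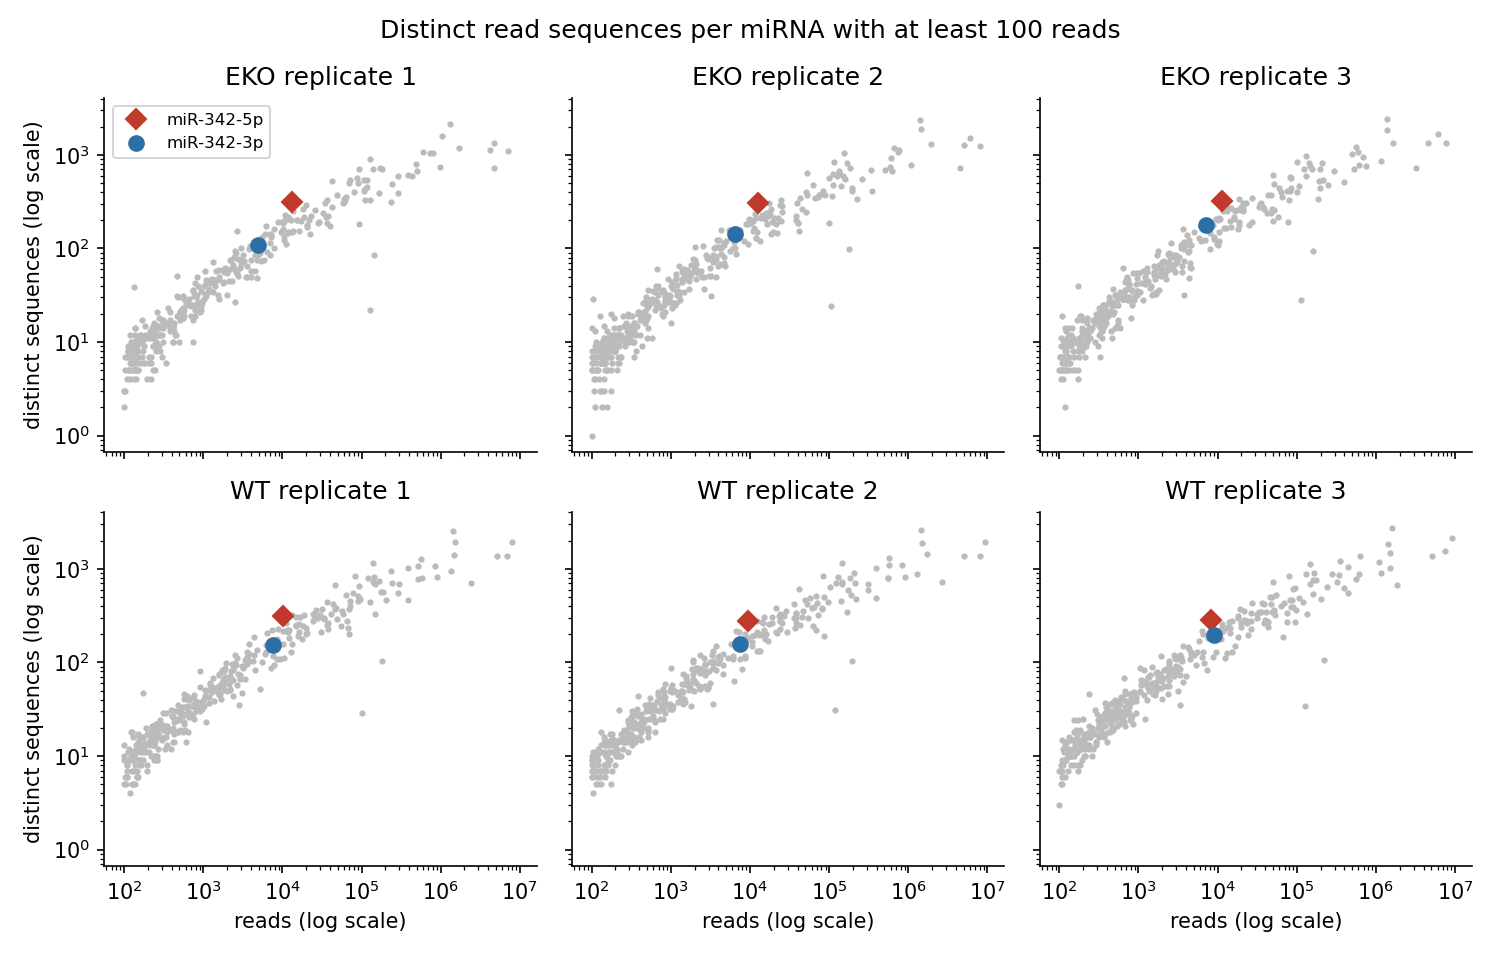
Unique read count, taken as the number of distinct read sequences, against reads, both on log scales, for each miRNA with at least 100 reads (grey), miR-342-5p (red) and miR-342-3p (blue), in 1 panel per library with EKO above WT. The 5p arm sits on the upper edge of the cloud in each panel, with 279 to 324 distinct sequences, and the 3p arm inside it.

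The 2 arms had opposite patterns over the libraries. Log2 CPM of miR-342-5p and miR-342-3p correlated at r = -0.90 over the 6 libraries, which share the split by genotype. Of the 250 other miRNAs averaging at least 10 CPM, 214 had a pattern more like that of miR-342-5p than its own partner arm did. Most alike to miR-342-5p were miR-7043-3p (r = 0.99), miR-1198-5p, miR-151-3p, miR-1964-3p and miR-1843b-3p (r = 0.98 for each of these 4). They were picked for likeness over the same 6 libraries, so a split by genotype like that of miR-342-5p follows from the choice. The level of miR-7043-3p was 310, 259 and 259 CPM in EKO and 191, 175 and 143 CPM in WT. The level of miR-151-3p, from an intron of Ptk2, was 23308, 18804 and 13415 CPM in EKO and 9998, 9435 and 6878 CPM in WT, which is the same order of libraries as for miR-342-5p.

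Most alike to miR-342-3p were miR-16-5p and miR-328-3p (r = 0.99 each), then miR-26a-5p, let-7g-5p and miR-186-5p (r = 0.98 each). The level of miR-16-5p, a miRNA that targets cell cycle transcripts, was 206, 288 and 394 CPM in EKO and 428, 388 and 577 CPM in WT. The level of let-7g-5p was 12686, 15870 and 20298 CPM in EKO and 23447, 22283 and 28569 CPM in WT. Picked for that likeness, both were lowest in EKO replicate 1 and highest in WT replicate 3, as miR-342-3p was. The closest miRNA with a RefSeq sequence to each arm is shown with its seed in capitals, to set beside those of miR-342.
miR-7043-3p: aCUGUGCCucucuguuuucag
miR-16-5p: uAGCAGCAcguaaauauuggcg

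Neither seed is that of the arm it follows, which had to be so, since no other mature name shares a seed with either arm. Of the 5 miRNAs alike to each arm, 4 had a sequence. GC content was 47.6% to 63.6% for those alike to the 5p arm and 36.4% to 45.5% for those alike to the 3p arm, where the 216 miRNAs with a sequence ranged from 27.3% to 75.0% with a median of 50.0%. The GC content of the arms themselves was 50.0% for the 5p arm and 52.2% for the 3p arm. The part of GC content in these correlations was not tested.

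**Figure D5:**
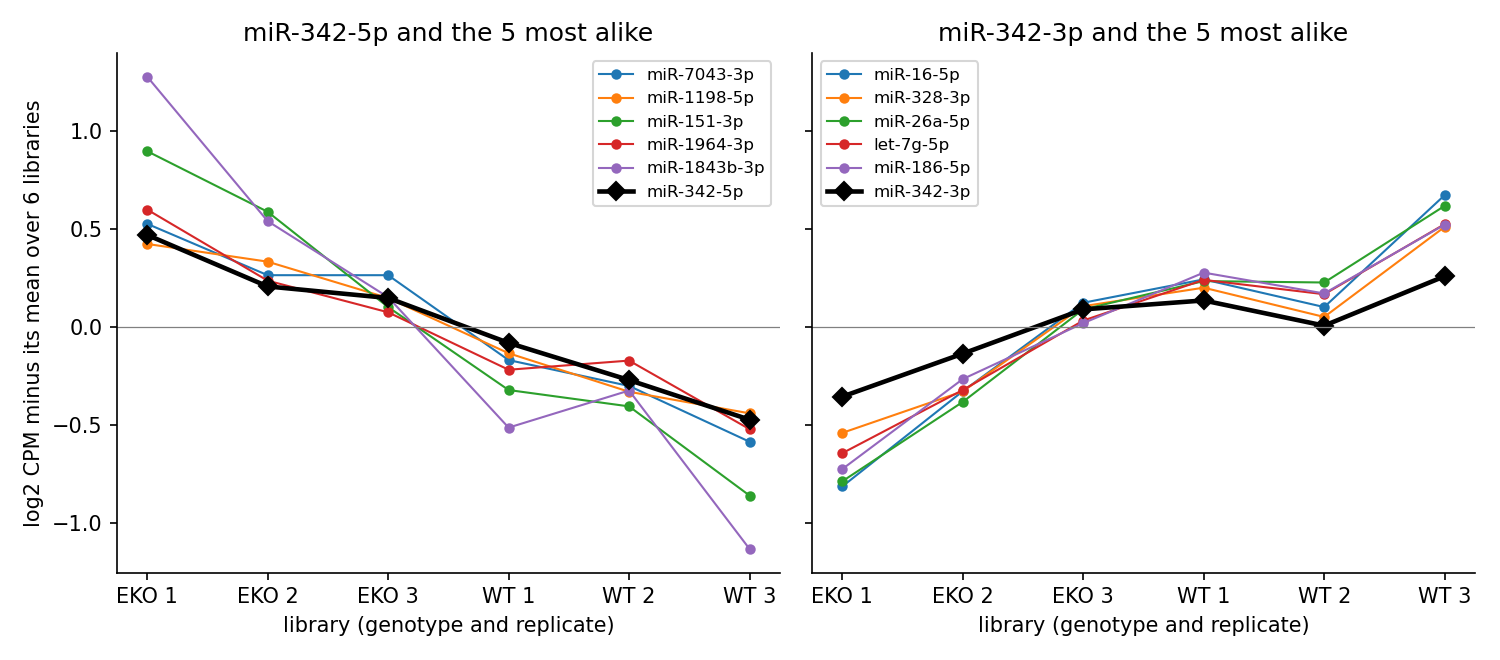
Log2 CPM minus its mean over the 6 libraries, for miR-342-5p and the 5 miRNAs most like it (left) and for miR-342-3p and the 5 most like it (right), in each library. The left group is highest in EKO replicate 1 and lowest in WT replicate 3, and the right group is the opposite.

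The inflammatory pathway that miR-342-5p is known for runs through miR-155, so the levels of both miR-155 arms are given here. The level of miR-155-5p, which is induced by Toll-like receptor signals, was 7.45, 17.4 and 30.7 CPM in EKO and 34.5, 34.5 and 33.2 CPM in WT. Every EKO value was lower than every WT value, as in 18.8% of all tested miRNAs. The fitted log2 fold change of miR-155-5p was -0.88 ± 0.44 (edgeR, SE, adjusted p = 0.323). A link between the levels of miR-155 and miR-342-5p was not tested. The passenger arm miR-155-3p was at 0 to 3.26 CPM in EKO and 0.871 to 3.82 CPM in WT.

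Of 12 miRNAs listed for macrophage inflammation 11 were tested, and 0 passed the adjusted threshold. At an unadjusted p under 0.05, 2 were higher and 3 lower in EKO, beside 8.35% and 13.0% of all tested, and the median log2 fold change was -0.22 against -0.16 for all. Besides miR-342-5p, the other on the higher side was miR-147-3p, a Toll-like-receptor-induced brake on cytokine production, at 53.4, 93.2 and 78.5 CPM in EKO and 46.6, 42.7 and 47.3 CPM in WT (log2 fold change 0.74 ± 0.22 SE, adjusted p = 0.104). On the lower side stood miR-125a-5p, which dampens inflammatory activation, at 87.5, 82.7 and 187 CPM in EKO and 343, 258 and 439 CPM in WT (-1.51 ± 0.32 SE, adjusted p = 0.0766). The other 2 on that side were miR-125b-5p, of the same family, at 129, 163 and 168 CPM in EKO and 242, 219 and 270 CPM in WT, and miR-21a-5p, which restrains inflammatory signalling. The level of miR-21a-5p was 137628, 152246 and 164387 CPM in EKO and 209780, 223096 and 220783 CPM in WT, again with no overlap.

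Among 13 miRNAs linked to PU.1 and myeloid differentiation, 12 were tested and 0 passed. At an unadjusted p under 0.05, 2 were higher (miR-342-5p and miR-223-5p) and 2 lower (miR-223-3p and miR-22-3p), where 8.35% of all tested miRNAs were higher and 13.0% lower. The median log2 fold change of the list was -0.20 and that of all tested -0.16. The level of miR-223-5p was 2673, 2880 and 2731 CPM in EKO and 2162, 2006 and 1959 CPM in WT, while that of miR-223-3p was 227, 264 and 281 CPM in EKO and 345, 349 and 520 CPM in WT. The level of miR-22-3p, a miRNA of myeloid differentiation, was 1054, 1027 and 1354 CPM in EKO and 1451, 1499 and 1822 CPM in WT, with no overlap of the groups (log2 fold change -0.45 ± 0.14 SE, adjusted p = 0.105, edgeR). The miRNAs of this list thus lay on both sides, miR-342 among those whose arms took opposite signs. The log2 fold change of miR-342-3p was -0.23 ± 0.15 (edgeR, SE, adjusted p = 0.472), so its sign is uncertain.

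Of 10 miRNAs listed for SREBP and sterol synthesis 9 were tested, and 0 passed. At an unadjusted p under 0.05, 2 were higher and 2 lower, beside 8.35% and 13.0% of all tested miRNAs, and the median log2 fold change was -0.23 beside -0.16. Beside miR-342-5p the higher one was miR-122-5p, known as the dominant liver miRNA, at 154, 101 and 102 CPM in EKO and 58.8, 49.4 and 47.2 CPM in WT. The lower ones were miR-96-5p, at 12.1, 8.65 and 11.3 CPM in EKO and 19.5, 23.3 and 18.6 CPM in WT, and the let-7 relative miR-98-5p, at 1145, 1037 and 1572 CPM in EKO and 1730, 1647 and 2355 CPM in WT. Of the 9 tested, 2 had every EKO value above and 3 below all WT values, beside 12.5% and 18.8% of all tested. Above were miR-342-5p and miR-122-5p, and below were miR-96-5p, miR-98-5p and miR-33-5p. The level of miR-33-5p, from an intron of Srebf2, was 0 to 0.0866 CPM in EKO and 0.44 to 0.9105 CPM in WT.

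Other hairpins that lie in introns were set beside miR-342. Of 36 references from that list 33 were tested, of which 3 were higher and 8 lower in EKO at an unadjusted p under 0.05 (0 adjusted, median log2 fold change -0.34), beside 8.35% higher and 13.0% lower among all tested. The 3 on the higher side were miR-342-5p, miR-151-3p of Ptk2 (1.11) and miR-139-5p of Pde2a (0.31). On the lower side were both arms of miR-93, miR-511-5p, miR-140-5p, miR-107-3p of Pank1, miR-26b-5p of Ctdsp1, miR-152-3p of Copz2 and the joint entry of miR-28a-5p and miR-28c, with log2 fold changes of -2.98 to -0.35. Over the 33 tested, 5 had every EKO value above and 10 every EKO value below the WT values, beside 12.5% and 18.8% of all tested. Arm ratios could be measured for 14 of these hairpins, miR-342 included, and 3 of the 14 had ratios with no overlap between genotypes, where 25.3% of all 154 hairpins did. The ratio of miR-140, in an intron of Wwp2, went the other way from that of miR-342, at 0.0378, 0.0371 and 0.0688 reads of 5p per read of 3p in EKO and 0.0756, 0.0839 and 0.114 in WT (log2 difference -0.97 ± 0.41 SE, adjusted p = 0.340, limma). The third was miR-93, in an intron of Mcm7, whose 3p arm averaged 4.12 CPM.

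The nearest other miRNA hairpin on chromosome 12, Mir345, lies 178255 bases downstream of miR-342 and outside Evl. Its miR-345-3p had 1336, 1195 and 1467 reads in EKO and 1641, 2434 and 2267 in WT, so every EKO count was below every WT count. In levels, 18.8% of all tested miRNAs had every EKO value below the WT values. The log2 fold change of miR-345-3p was -0.51 (edgeR, unadjusted p = 0.0631). That is the sign of miR-342-3p (-0.23) and not of miR-342-5p (0.58). The next 3 hairpins downstream, Mir770, Mir673 and Mir493, had at most 3 reads in any library.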

How the data were processed

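Small RNA libraries (NEB small RNA kit, column-purified total RNA, per the labels' protocols) of 3 EKO and 3 WT macrophage cultures were used, 1 deposited table each; the series describes them as biological replicates. Per the file headers, the authors' tables hold a total read count, an estimated count with shared reads divided among references, a unique read count and a molecular-barcode count, which summed to 0, so PCR copies were not removed. The unique read count is not defined there and was read as the number of distinct read sequences. The submitters' processing notes name mm9; of the aligner and the counter, nothing is given in the sources used here. Estimated counts as deposited were rounded; 73 stem-loop references (0 from mir-342) were left out, and a reference without an entry counted as 0.

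Levels are CPM of the library total. The main test was edgeR 4.0.16 (R 4.3.3) with TMM (factors 0.937 to 1.05), filterByExpr and the quasi-likelihood test on genotype, adjusted by Benjamini-Hochberg over 575 miRNAs at 0.05; SE is the log2 fold change divided by the square root of F. Arm ratios, log2((5p + 0.5)/(3p + 0.5)), were tested with limma 3.58.1 over 154 hairpins. DESeq2 1.42.0 and others were alternatives. The fits were tested on simulated counts. The 2 arms, the lists and the tests were chosen with earlier results of these data known. Named are both arms, list members with an unadjusted p under 0.05 or a role bearing on miR-342, and the 5 miRNAs per arm most alike by Pearson correlation of TMM log2 CPM among those averaging at least 10 CPM; the neighbours on chromosome 12, miR-1198 and miR-5134 were added after their values were seen.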

Additional observations from a re-analysis of the deposited data

How the results depend on the processing

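In every setting run the log2 fold change kept its sign, at 0.44 to 0.77 for miR-342-5p and -0.33 to -0.12 for miR-342-3p, and miR-342-3p never passed. For miR-342-5p it passed with DESeq2 (0.66), no low-count filter (0.61, adjusted p = 0.0369), a mean of at least 10 CPM (0.61), that filter with the GC trend removed (0.61, adjusted p = 0.0322, combination chosen after seeing the data), a replicate block (0.58, adjusted p = 0.0144), and the block with that filter (0.61, adjusted p = 0.000489, also chosen later). Leaving out each library in turn, with and without that filter, gave 0.44 to 0.71, past the threshold in 1 of 12 fits, without EKO replicate 3 under the filter (adjusted p = 0.0167). The ratio difference was 0.82 in all 6 other settings (adjusted p = 0.0513 to 0.354) and 0.61 to 0.99 with 1 library left out, past the threshold only without EKO replicate 3 with both arms averaging at least 10 CPM (adjusted p = 0.0362). The difference in distinct sequences, 24.3 for miR-342-5p and -27.3 for miR-342-3p, took the other sign per 1000 reads, at -6.15 and 1.76, and was 18.2 to 34.2 and -45.0 to -10.5 with 1 library left out.

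The number of miRNAs called, 0 by the main test, was 102 with DESeq2, 32 with limma-voom, 52 with no low-count filter, 59 with a mean of at least 10 CPM (47 with the GC trend removed as well), 62 with the replicate block (95 under that filter), and 0 to 91 with 1 library left out. There it was 45 without EKO replicate 3, and 13, 1 and 91 on leaving out EKO replicates 1, 2 and 3 in turn among miRNAs averaging at least 10 CPM. The number of hairpins called on their arm ratio, 2 by the main test, was 0 with a pseudocount of 5 or a replicate block, 1 (0 with the block) with both arms averaging at least 10 CPM, 9 with edgeR's exon-usage test, and 0 to 18 with 1 library left out (4 without EKO replicate 1 and 0 without EKO replicate 3; with both arms averaging at least 10 CPM, 18 on leaving out EKO replicate 3 and 0 for each other library). The causes were not tested. The labels do not say whether the replicate number pairs EKO and WT libraries. The deviations from the group means of each EKO and WT pair of that number correlated at -0.12, -0.04 and -0.04. The best WT match of EKO replicates 1, 2 and 3 was 2, 1 and 1, and 3 libraries per genotype cannot settle a pairing. Read counts without molecular barcodes do not give the number of molecules behind a value.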
